A study of Mus musculus with 18 samples.

Results

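The insulin-like growth factor (IGF) system was examined in cultured bone marrow stromal cells of the mouse, the adherent fibroblast-like cells of the marrow, grown as colonies from single cells. Its members were taken as 10 genes: the ligands Igf1 and Igf2, the receptors Igf1r and Igf2r, and the binding proteins Igfbp2, Igfbp3, Igfbp4, Igfbp5, Igfbp6 and Igfbp7. A probe set, the group of short oligonucleotides that reads 1 transcript on an Affymetrix array, was counted for a member where the platform annotation gave that gene and no other. By this rule 9 of the 10 members had at least 1 probe set, 20 in all, out of 15964 genes and 29131 probe sets with a single gene in the series. The probe set annotated with Igfbp5 also carried the name of another gene, so Igfbp5 has no value here.

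The groups were 3 RNAs from CD34+ clones and 3 RNAs from CD34- clones, CD34 being a sialomucin found on the surface of blood stem cells and endothelial cells. No genotype, strain, age or treatment is given for either group in the labels, and all clones were grown in DMEM with 10% fetal bovine serum. Each RNA was hybridised to 1 array of each of 3 chip types (MG_U74Av2, MG_U74Bv2 and MG_U74Cv2), which made 18 arrays. Nothing in the labels ties the 3 RNAs of a group to different clones or cultures. CD34 status and a difference between single clones cannot be told apart, and the p-values measure the spread between these RNAs alone, which may be technical.

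IGF1 and IGF2 are small secreted growth factors related in structure to proinsulin, and both signal through IGF1R, a receptor tyrosine kinase that activates the PI3K-Akt and MAP kinase routes. IGF2R, also known as the cation-independent mannose 6-phosphate receptor, carries lysosomal enzymes and removes IGF2 from the cell surface without a kinase of its own. The IGF binding proteins hold IGFs outside the cell and lengthen or limit their action, and in bone and marrow stroma IGFs are known as growth and survival factors of the osteoblast lineage.

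The DNA just upstream of the transcription starts of the ligands is given here because the ligands were the members whose signals passed the test. RefSeq promoter windows of GRCm38.p6 were found for all 10 members (14 windows, 4 of them for Igf2), and the 250 bases before each start were searched for the GC box GGGCGG and the TATA box TATAAA on both strands. The Igf1 window lies at chr10:87860861-87861110 on the plus strand, and the Igf2 window shown, that of the most downstream start, at chr7:142657497-142657746 on the minus strand. Both are written 5′ to 3′ along the gene, with motif matches in capitals:
Igf1 upstream window: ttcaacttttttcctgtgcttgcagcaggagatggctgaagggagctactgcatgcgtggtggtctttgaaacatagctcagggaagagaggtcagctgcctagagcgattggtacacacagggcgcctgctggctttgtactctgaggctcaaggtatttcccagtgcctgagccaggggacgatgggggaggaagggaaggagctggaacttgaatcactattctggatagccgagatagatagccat
Igf2 upstream window: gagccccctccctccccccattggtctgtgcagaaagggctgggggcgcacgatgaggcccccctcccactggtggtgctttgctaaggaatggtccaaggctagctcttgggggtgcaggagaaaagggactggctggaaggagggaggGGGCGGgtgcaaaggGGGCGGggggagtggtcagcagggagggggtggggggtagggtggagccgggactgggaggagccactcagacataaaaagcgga
The Igf1 window held neither motif and had a GC content of 52.8%. The Igf2 window shown held 2 GC boxes, no TATAAA, and 66.0% GC. The other Igf2 windows held 0, 0 and 1 GC boxes, no TATAAA, and 50.8%, 47.6% and 68.8% GC, so the contrast with Igf1 depends on the start chosen. Of 32851 RefSeq windows of the same length, 32.7% held a GC box and 12.4% a TATA box, against 6 and 2 of the 14 windows of the members. A match is a match of letters only, and no binding was measured.

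Within each chip type the 6 arrays were brought to 1 distribution (quantile normalization), since the deposited CD34- arrays lay 14.1 to 120 times below the CD34+ arrays in trimmed mean signal. All levels below are normalized intensities, which compare RNAs at 1 probe set and say nothing of levels between probe sets. A difference is CD34+ minus CD34- on the scale of log2(intensity + offset), with offsets of 51.5, 106 and 97.9 on the 3 chip types, so that it understates the change of dim probe sets. In limma, an adjusted p under 0.05 made a call. Cd34 itself, the gene that defines the groups, read 938, 787 and 919 in CD34+ clones against 172, 59.9 and 128 in CD34- clones at 1 of its probe sets (log2 2.50, limma adjusted p = 0.000374), and its other probe set differed by 2.39. The first of these passed the filter on dim signals through the CD34+ arrays alone, so its groups had to lie apart and the size follows the offset. Of the stromal markers listed, 10 of 13 had a tested probe set, Col1a1 and Col1a2 among them, and 6 of the 10 were lower in CD34+ clones. The summed level of the 12 on MG_U74Av2 was 54040 to 57670 in CD34+ clones and 102500 to 109900 in CD34- clones. Most of that sum came from Col1a1 and Col1a2 (means of 19940 and 23660 in CD34+ clones, 42620 and 36220 in CD34- clones). Limma did not call the other 4 of the 10 tested (Pdgfrb, Vcam1, Vim and Nt5e). The summed endothelial markers (383 to 581 in CD34+ clones, 645 to 792 in CD34- clones) also lay lower there without overlap. Only 1 of these 7 genes passed the filter, Pecam1, and it was not called (log2 -0.89, limma adjusted p = 0.0854), so that sum is mostly of dim signals. The neutrophil, lymphoid, erythroid and osteoblast sums overlapped. The adipocyte sum was 2646 to 2763 in CD34+ clones and 3000 to 3496 in CD34- clones, but of its 3 tested genes only Cebpa was lower (log2 -0.51), and Fabp4 (0.27) and Pparg (0.09) were not called. RNA integrity controls differed slightly on MG_U74Av2. The 3′ to 5′ signal ratios of Gapdh there were 0.70 to 0.771 in CD34+ clones and 0.802 to 0.832 in CD34- clones. Those of b-actin there were 1.03 to 1.09 in CD34+ clones and 1.1 to 1.2 in CD34- clones. On MG_U74Cv2 the b-actin ratios also lay apart (0.951 to 1.02 in CD34+ clones, 1.03 in CD34- clones) and those of Gapdh overlapped. On MG_U74Bv2 the ratios of each control overlapped. The RNA stocks held 0.421 to 0.721 µg per µl in CD34+ clones and 0.989 to 1.38 µg per µl in CD34- clones. The part of these differences in the results below was not tested.

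Of the 20 probe sets, 12 passed the filter on dim signals and were tested, covering 7 genes. No probe set of Igfbp3 or Igfbp6 passed it, and Igf1 95546_g_at and Igfbp4 94222_at passed it through the 3 CD34- arrays alone, so that their groups had to lie apart. Of the 7 tested on MG_U74Av2, 1 was called higher and 1 lower in CD34+ clones, beside 8.21% higher and 6.69% lower among all 7634 probe sets tested there. Of the 3 tested on MG_U74Bv2, 1 was called lower, beside 0.401% lower and 0.685% higher among all 7737, and limma called 0 of the 2 on MG_U74Cv2 (0 also at an unadjusted p under 0.05), beside 0.0936% in either direction among all 7481. The 3 RNAs of one group lay apart from those of the other at 4 of 7, 1 of 3 and 0 of 2 of these probe sets, beside 34.5%, 23% and 14.1% of all those tested on the 3 chip types. With so few members, and with 2 of them apart through the filter, these shares say little beyond the probe sets named below.

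**Figure D1:**
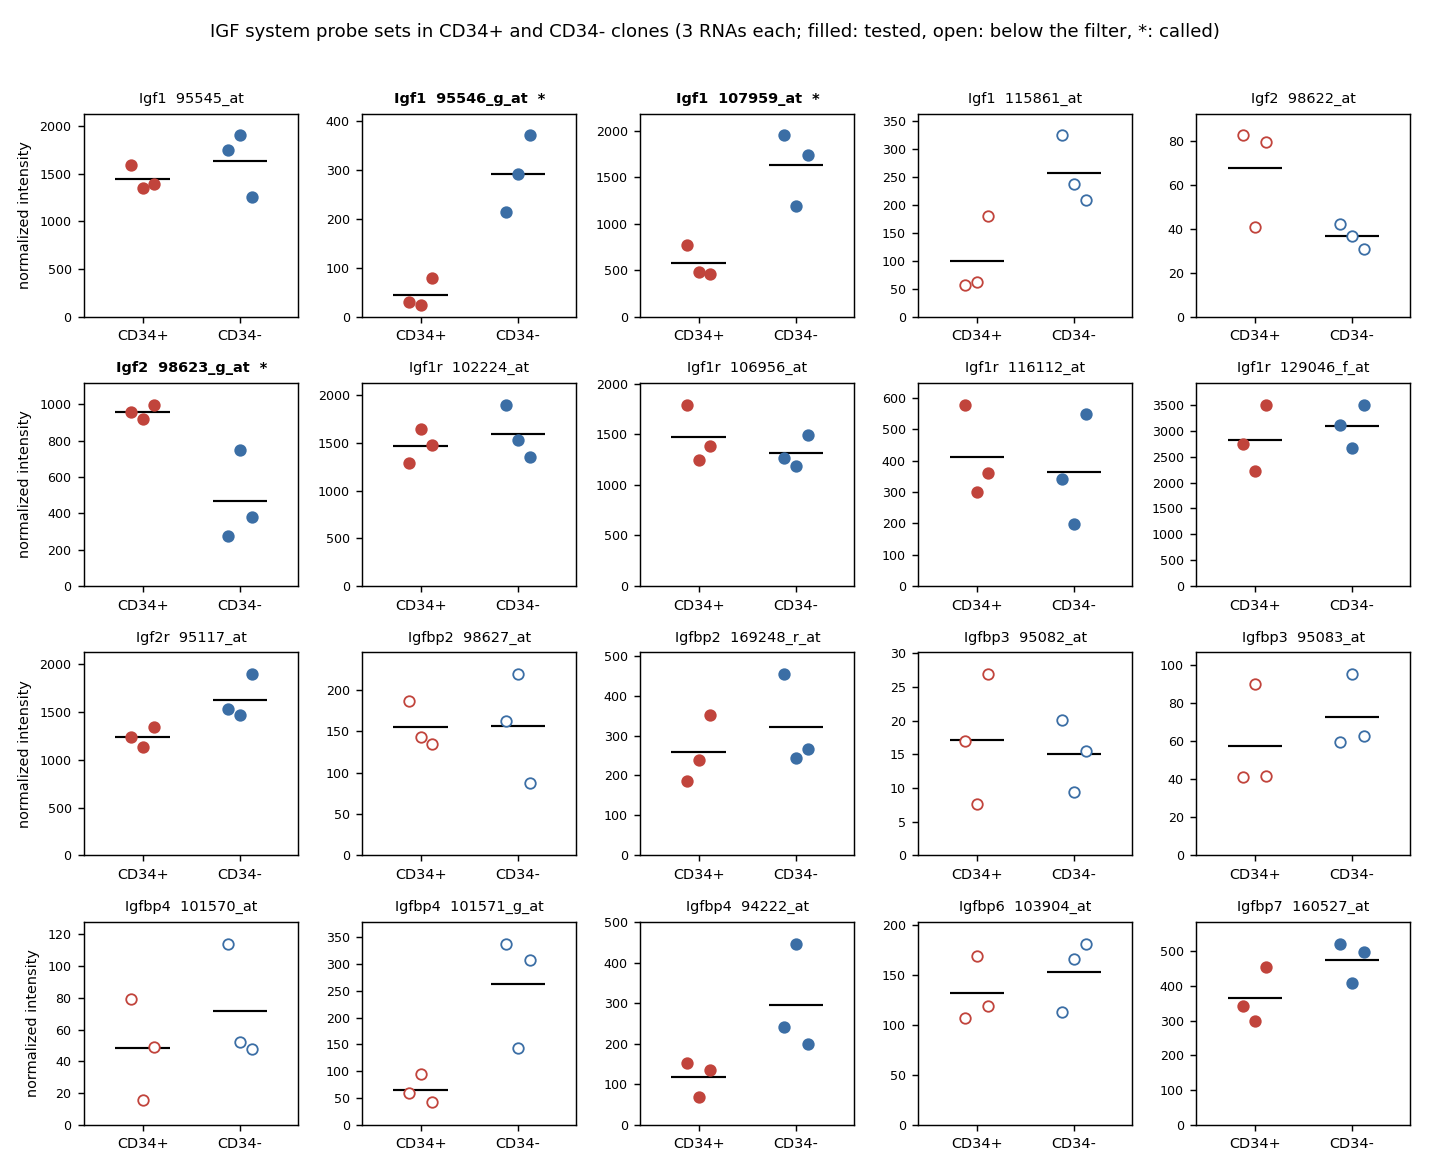
Normalized intensity of each of the 20 probe sets in the 3 CD34+ RNAs (red, left) and the 3 CD34- RNAs (blue, right), 1 panel per probe set with its own axis from 0. Points are arrays, bars are group means, filled points passed the filter, open points did not, and an asterisk marks a called probe set. The panels of Igf1 95546_g_at and Igf1 107959_at show all CD34+ points below all CD34- points, and the panel of Igf2 98623_g_at shows all CD34+ points above.

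Igf1, the ligand that growth hormone induces in many tissues, was lower in CD34+ clones at 2 of its 3 tested probe sets. At 95546_g_at the CD34+ RNAs read 30.2, 22.8 and 79.0, against 214, 292 and 371 in the CD34- RNAs. The groups did not overlap, and all CD34+ signals were below the 40th percentile of the arrays, which was 177 after normalization, while all CD34- signals were above it. The mean was 44.0 ± 30.6 in CD34+ clones and 293 ± 78.4 in CD34- clones (SD, n = 3 each), a log2 difference of -1.87 ± 0.32 (SE; limma adjusted p = 0.00529; 0.00814 in the fit without the filter). The call was made in 14 of 15 alternatives that allow a test, and was missed narrowly within fluidics station 2, the wash unit shared by 2 arrays of each group (log2 -1.62, limma adjusted p = 0.050). With CD34+ signals this dim the size follows the offset and is no exact fold: it was -1.43 with the offset doubled, -2.25 with it halved and -2.93 on centred deposited values without one.

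At 107959_at, on MG_U74Bv2, Igf1 read 775, 481 and 463 in CD34+ clones against 1954, 1191 and 1741 in CD34- clones. Again the groups did not overlap. The difference was -1.36 ± 0.25 (SE; 2.56-fold; limma adjusted p = 0.0402), with a 95% interval of -1.91 to -0.80. This call stood in 5 of 15 alternatives. It was lost without CD34+ replicate 1, 2 or 3 or CD34- replicate 1 or 3 (limma adjusted p = 0.0718, 0.138, 0.140, 0.142 and 0.0863), and with the fluidics station as a block (log2 -1.63), although the difference lay between -1.63 and -1.22 in all of them. On MG_U74Bv2 all 3 CD34+ arrays and CD34- replicate 1 ran on station 1, and CD34- replicates 2 and 3 on station 2. Station and group were thus largely confounded there, and the block compares the 3 CD34+ arrays with 1 CD34- array.

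The remaining Igf1 probe sets did not give a call. The brighter probe set 95545_at, built on the same transcript record as 95546_g_at, read 1592, 1348 and 1395 in CD34+ clones against 1745, 1901 and 1256 in CD34- clones. Here the groups overlapped, since CD34- replicate 3 was below all CD34+ RNAs, and the difference was -0.15 with a 95% interval of -0.51 to 0.21 (limma adjusted p = 0.564). That interval does not meet those at 95546_g_at (-2.60 to -1.14) and 107959_at, so the Igf1 probe sets disagreed on the size of the difference. Within fluidics station 1, which holds 1 array of each group, the value at 95545_at was 0.33. When the 2 probe sets of MG_U74Av2 were averaged, the difference was -1.01 ± 0.16 (SE; limma adjusted p = 0.00273). This average includes 95546_g_at, whose groups had to lie apart through the filter and whose size follows the offset. The average therefore does not settle the disagreement between the probe sets. The probe set 115861_at failed the filter, with 56.9, 62.0 and 180 in CD34+ clones against 324, 238 and 209 in CD34- clones. Its groups did not overlap, and without the filter its difference was -0.86 (limma adjusted p = 0.282).

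Igf2, the ligand expressed mainly before birth and, in the mouse, from the paternal allele in most tissues, was higher in CD34+ clones at its 1 tested probe set. At 98623_g_at the CD34+ RNAs read 956, 917 and 997, against 276, 745 and 379 in the CD34- RNAs. The CD34+ values lay close together and above all CD34- values, of which replicate 2 was the nearest. The means were 956 ± 39.9 in CD34+ clones and 467 ± 246 in CD34- clones (SD, n = 3 each), a log2 difference of 1.06 ± 0.28 (SE; 2.09-fold; limma adjusted p = 0.0333). The call stood in 7 of 15 alternatives. It was lost without CD34+ replicate 1, 2 or 3 or CD34- replicate 1 or 3 (limma adjusted p = 0.0837, 0.0835, 0.105, 0.0887 and 0.0720), while leaving out CD34- replicate 2 gave a difference of 1.42 (limma adjusted p = 0.00159).

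The other Igf2 probe set, 98622_at, was dim on all arrays. It read 82.8, 41.1 and 79.7 in CD34+ clones against 42.2, 36.9 and 30.9 in CD34- clones. The groups overlapped by a single CD34+ RNA, and without the filter the difference was 0.42 (limma adjusted p = 0.275). For every probe set whose groups lay apart, the exact two-sided permutation p over RNAs was 0.1, the smallest that 3 against 3 can give.

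**Figure D2:**
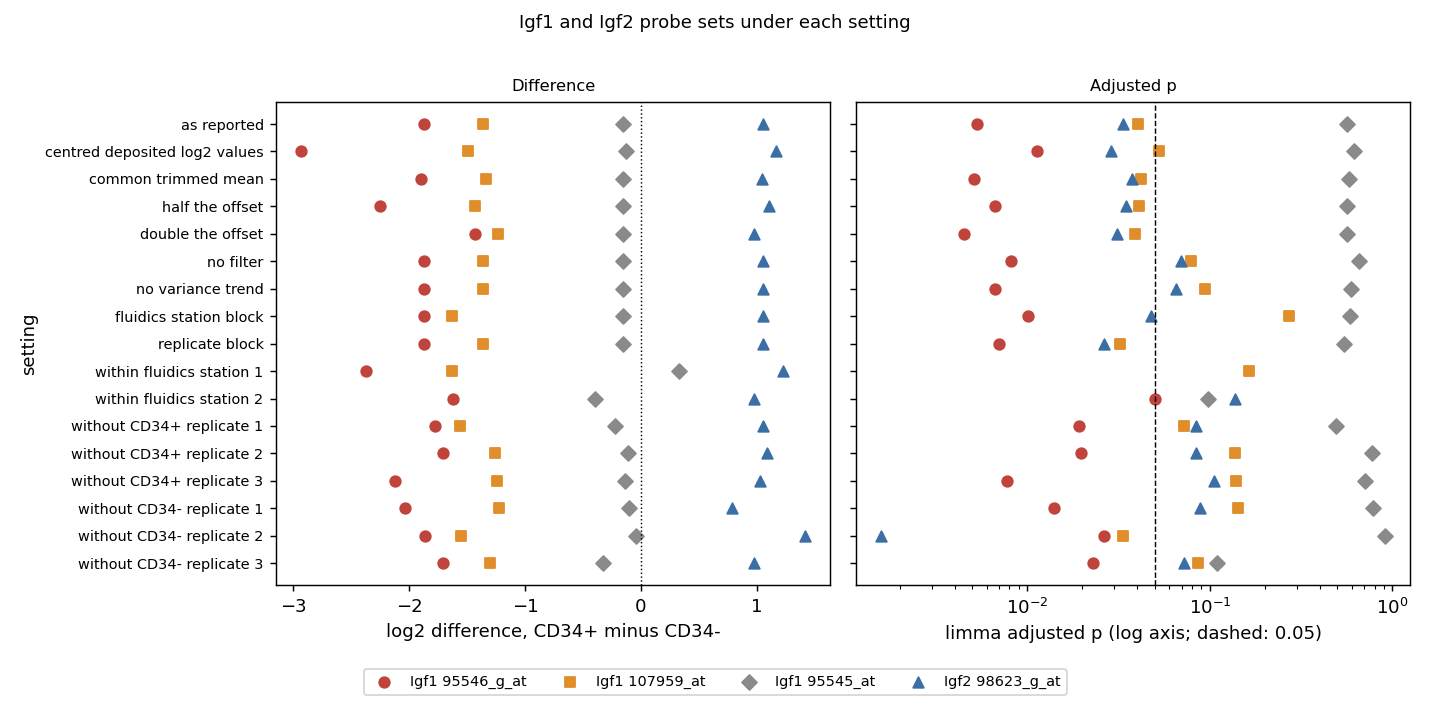
The log2 difference (left) and the limma adjusted p on a log axis (right, dashed line at 0.05) of 3 Igf1 probe sets and 1 Igf2 probe set, as reported and under each alternative. The differences of 95546_g_at, 107959_at and 98623_g_at keep their signs throughout, whereas the adjusted p of 107959_at and 98623_g_at passes 0.05 in 10 and 8 of 15 alternatives.

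Macrophages are known as a source of Igf1, and other marrow cells are the contaminant that the labels allow for, beside an estimated purity of 100% for every RNA. The macrophage list had 4 of 10 genes with a tested probe set (Cd14, Csf1r, Laptm5 and Cd68), and limma called 0 of the 4 in either direction (log2 -0.03, 0.02, 0.18 and 0.01; 0 also at an unadjusted p under 0.05). Ptprc, Adgre1 and Itgam, which define blood cells and macrophages, were on MG_U74Av2 and did not pass the filter. The summed level of the list there was 3270 to 3715 in CD34+ clones and 2981 to 4372 in CD34- clones, so the groups overlapped. With only 4 of the 10 genes tested, these values do not settle the matter. The part of macrophages in the Igf1 difference was not tested.

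The receptors were not called. Igf1r, the signalling receptor of both ligands, had 4 tested probe sets over all 3 chip types. At 102224_at it read 1289, 1649 and 1482 in CD34+ clones against 1901, 1528 and 1353 in CD34- clones, a difference of -0.10 with a 95% interval of -0.44 to 0.24 (limma adjusted p = 0.689). At 106956_at the values were 1793, 1243 and 1386 in CD34+ clones against 1264, 1183 and 1489 in CD34- clones, a difference of 0.15 with an interval of -0.26 to 0.55 (limma adjusted p = 0.741). The groups overlapped at each of these. They also overlapped at 116112_at, with 579, 299 and 360 in CD34+ clones against 342, 197 and 550 in CD34- clones (log2 0.18, interval -0.61 to 0.97). At 129046_f_at the values were 2743, 2229 and 3504 in CD34+ clones against 3103, 2670 and 3504 in CD34- clones (log2 -0.14, interval -0.62 to 0.34). The intervals at the first pair of probe sets leave out any difference of 1 on the log2 scale, in either direction, that is, of the size found for Igf2.

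Igf2r, the receptor that clears IGF2, read 1239, 1128 and 1339 in CD34+ clones against 1527, 1464 and 1894 in CD34- clones. All 3 CD34+ RNAs were below all 3 CD34- RNAs. Groups that lay apart in one direction or the other made up 34.5% of the probe sets tested on that chip type. The means were 1235 ± 106 in CD34+ clones and 1628 ± 233 in CD34- clones (SD, n = 3 each), a difference of -0.38 with an interval of -0.68 to -0.08 that did not pass the adjusted threshold (limma adjusted p = 0.0894; 0.0834 to 0.258 with 1 RNA left out).

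Among the binding proteins, Igfbp4, which mainly inhibits IGF action, came nearest to a call. Its tested probe set 94222_at read 154, 68.3 and 135 in CD34+ clones against 241, 448 and 200 in CD34- clones. The CD34+ signals were all below the 40th percentile of the arrays (177) and the CD34- signals all above it, so the probe set was tested through the CD34- arrays alone and the groups had to lie apart. The means were 119 ± 44.7 in CD34+ clones and 296 ± 133 in CD34- clones (SD, n = 3 each), and the difference was -1.0 ± 0.33 (SE; limma adjusted p = 0.0709; 0.123 without the filter). A second probe set, 101571_g_at, failed the filter and read 58.6, 95.2 and 43.5 in CD34+ clones against 338, 144 and 306 in CD34- clones. There the groups also lay apart, by -1.38, and a fit of all probe sets without the filter called it (limma adjusted p = 0.0372). The remaining one, 101570_at, was dim and overlapped, with 79.4, 15.8 and 49.2 in CD34+ clones against 114, 52.2 and 48.0 in CD34- clones.

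Igfbp7, a secreted relative with low affinity for IGFs, read 342, 298 and 454 in CD34+ clones against 522, 408 and 498 in CD34- clones. The groups overlapped, and the difference was -0.35 with an interval of -0.77 to 0.07 (limma adjusted p = 0.245). Igfbp2, which binds IGF2 with preference, had 1 tested probe set, 169248_r_at, with 187, 239 and 351 in CD34+ clones against 454, 245 and 266 in CD34- clones. Its interval was wide, -1.06 to 0.61 around -0.22 (limma adjusted p = 0.914), and at its other, untested probe set the means were 155 in CD34+ clones and 156 in CD34- clones.

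The remaining binding proteins were at or near the dim end. Igfbp3, the main IGF carrier of serum, read 16.9, 7.69 and 26.9 in CD34+ clones against 20.1, 9.41 and 15.5 in CD34- clones at 95082_at, which lay between percentiles 2.37 and 11.3 of its arrays. At 95083_at it read 41.0, 89.9 and 41.4 in CD34+ clones against 59.3, 94.96 and 62.6 in CD34- clones. Igfbp6, which also prefers IGF2, read 107, 170 and 119 in CD34+ clones against 113, 166 and 182 in CD34- clones. The groups overlapped at all 3 probe sets, and without the filter their adjusted p-values in limma were 0.694 to 0.910. Signals this low bound what can be said of these 2 genes, and no difference was detected here.

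**Figure D3:**
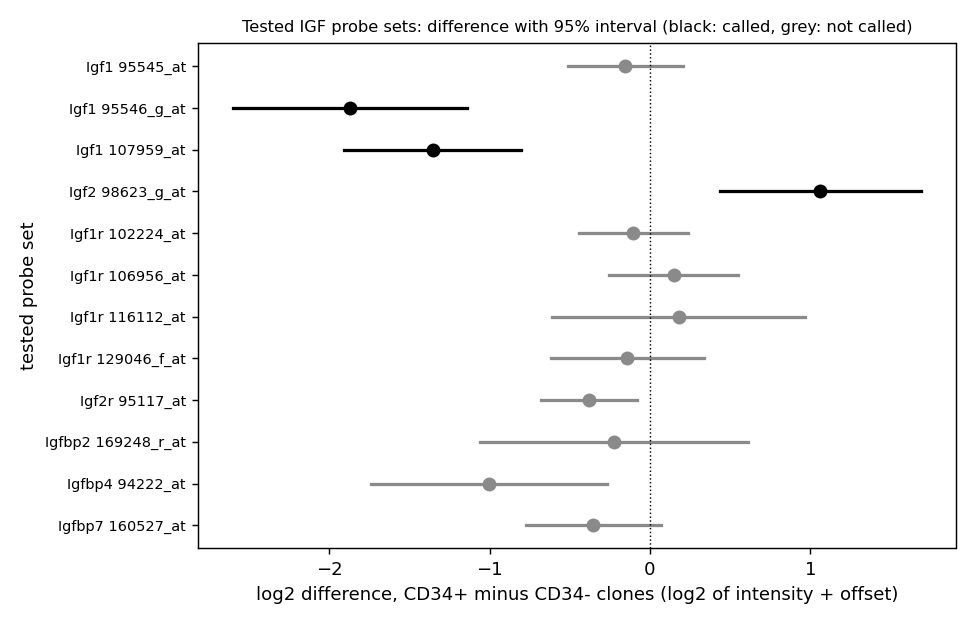
Log2 difference, CD34+ minus CD34- clones, with its 95% interval for each of the 12 tested probe sets (black: called, grey: not called). Igf1 95546_g_at (-1.87) and 107959_at (-1.36) lie left of 0 and Igf2 98623_g_at (1.06) right of it. The intervals of Igf2r and Igfbp4 also leave out 0 without passing the adjusted threshold.

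Genes that act around the IGFs were read from lists in which each gene had 1 tested probe set, taken from the first chip type that tested it and the brightest there. Over all 11969 genes so obtained, 4.39% were called higher and 3.51% lower in CD34+ clones, and the median difference was 0.02. Among relatives of the system outside the members, 3 of 10 listed genes were tested and 1 was called. Igf2bp1, an RNA-binding protein named for its binding of Igf2 mRNA, read 369, 432 and 364 in CD34+ clones against 124, 101 and 63.8 in CD34- clones. It passed the filter through the CD34+ arrays alone, since all CD34- signals were below 177, so its groups had to lie apart and the size of the difference follows the offset. That difference was 1.59 ± 0.23 (SE; limma adjusted p = 0.00247; 0.00603 without the filter), and the call stood in every alternative that allows a test. Its probe set on MG_U74Cv2 overlapped and differed by 0.32 (limma adjusted p = 0.862). The insulin receptor Insr differed by -0.19, 0.07 and -0.17 at its 3 tested probe sets (limma adjusted p = 0.509 to 0.927).

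Proteases known or reported to cut IGF binding proteins, with the stanniocalcins that inhibit pappalysins, had the most calls of the 7 lists around the IGF system. Of 13 listed, 8 were tested, 0 were higher, 5 were lower and 3 were not called by limma, beside 4.39% higher and 3.51% lower among all genes. The median difference was -0.56, and at an unadjusted p under 0.05 in limma also 0 were higher and 5 lower. The lists were chosen with earlier results of these data known, so the rank of this list is no test of it. The complement proteases C1s1 and C1ra, of which human C1s is reported to cut IGFBP5, were both lower. C1s1 read 947, 777 and 1063 in CD34+ clones against 3628, 2335 and 3989 in CD34- clones (log2 -1.70, limma adjusted p = 0.0130), and C1ra differed by -0.87 (limma adjusted p = 0.00190). Htra1, a secreted serine protease, read 2875, 2658 and 3387 in CD34+ clones against 5476, 4550 and 4713 in CD34- clones (log2 -0.72, limma adjusted p = 0.00420).

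Ctsd, the lysosomal protease cathepsin D, which is itself a cargo of IGF2R, differed by -0.67 (limma adjusted p = 0.00326), and the membrane metalloprotease Adam9 by -0.45 (limma adjusted p = 0.0497). The groups did not overlap at any of the 5, beside 34.5% of all probe sets tested on MG_U74Av2 and 23% on MG_U74Bv2. As these 5 were picked by their calls, the lack of overlap adds no separate support. Htra1 on MG_U74Cv2 differed by only -0.14 (limma adjusted p = 0.796). Pappa, the pappalysin that cuts IGFBP4, read 306, 381 and 370 in CD34+ clones against 417, 294 and 286 in CD34- clones, and its groups overlapped (log2 0.07, limma adjusted p = 0.969). The call of C1s1 was lost without CD34+ replicate 1, 2 or 3 or CD34- replicate 1 (limma adjusted p = 0.0672, 0.0844, 0.0717 and 0.0653) and with the station as a block (log2 -1.86). That of Adam9 was lost without CD34+ replicate 1, 2 or 3 or CD34- replicate 1 or 3 (limma adjusted p = 0.0916, 0.128, 0.143, 0.115 and 0.0978). The Adam9 call was also lost with the replicate number as a block (0.0793), with no filter (0.0734), without the variance trend (0.0788), on centred values (0.0867) and within station 2 (0.131). That of C1s1 was also lost without the variance trend (limma adjusted p = 0.0625) and within station 1. Its chip type, MG_U74Bv2, had only 1 CD34- array on station 1, so both station fits of C1s1 rest on that array. Without CD34+ replicate 1, 2 or 3 or CD34- replicate 1, 3 of the 8 were called lower.

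In the growth hormone axis, 8 of 9 listed genes were tested, 1 was higher and 1 lower. Socs3, a feedback inhibitor of cytokine receptors, read 435, 450 and 555 in CD34+ clones against 1022, 680 and 931 in CD34- clones at its brightest probe set (log2 -0.79, limma adjusted p = 0.0164), and its second probe set on MG_U74Av2 differed by -1.30 (limma adjusted p = 0.0115). At the Socs3 probe set of MG_U74Bv2 the groups overlapped (log2 -0.22). The related inhibitor Socs1 differed by 0.48 (limma adjusted p = 0.0484), a call that was lost in 11 of 15 alternatives. Socs3's call was lost without CD34+ replicate 1 or 2 or CD34- replicate 1 (limma adjusted p = 0.0590, 0.0631 and 0.0653) and within station 2 (0.0970). The growth hormone receptor Ghr, which drives Igf1 transcription through Stat5b in liver, read 902, 818 and 775 in CD34+ clones against 898, 919 and 1017 in CD34- clones, and its 2 probe sets differed by -0.17 and -0.04 (limma adjusted p = 0.388 and 0.857).

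Downstream of the receptor, 0 of 17 tested adaptor genes (of 20 listed) were called, with a median difference of -0.08. In limma 1 of the 17 was lower and 0 higher at an unadjusted p under 0.05. Irs1, a docking protein of the insulin and IGF1 receptors, read 2065, 2202 and 2173 in CD34+ clones against 2849, 2141 and 2852 in CD34- clones (log2 -0.26, limma adjusted p = 0.419). Irs2 failed the filter, with means of 136 in CD34+ clones and 149 in CD34- clones. Grb10, an imprinted adaptor that restrains IGF1 receptor signalling, overlapped at its tested probe set (log2 -0.44, limma adjusted p = 0.615), and of its 3 untested probe sets 1 lay apart, with 84.5, 125 and 104 in CD34+ clones against 145, 203 and 209 in CD34- clones.

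Of 24 tested genes of the PI3K, Akt, mTOR and FoxO list (29 listed), 1 was called higher and 0 lower by limma, with a median of -0.08. At an unadjusted p under 0.05, 5 were higher and 7 lower, beside 1460 and 1179 of the 11969 genes. The called gene was Akt1, the kinase at the centre of the route. It read 4513, 4262 and 3812 in CD34+ clones against 2672, 2608 and 2933 in CD34- clones, without overlap, a difference of 0.61 ± 0.10 (SE; 1.52-fold; limma adjusted p = 0.00454). The call stood in every alternative that allows a test.

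In the mannose 6-phosphate sorting list, the partners of IGF2R in the route to the lysosome, 9 of 12 genes were tested and 1 was called. Gga2, an adaptor that packs mannose 6-phosphate receptors into vesicles at the Golgi, read 745, 855 and 783 in CD34+ clones against 1103, 1104 and 1508 in CD34- clones (log2 -0.60, limma adjusted p = 0.0273). This call was lost without CD34+ replicate 1, 2 or 3 (limma adjusted p = 0.0879, 0.0616 and 0.0803), on centred deposited values (0.0519) and within station 2 (0.112). The other, cation-dependent receptor M6pr overlapped (log2 0.08). Of 10 imprinted growth genes, 5 were tested and limma called 0 (median 0.12; 0 at an unadjusted p under 0.05). H19, the imprinted neighbour of Igf2, had no probe set of its own in the annotation used and has no value here.

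**Figure D4:**
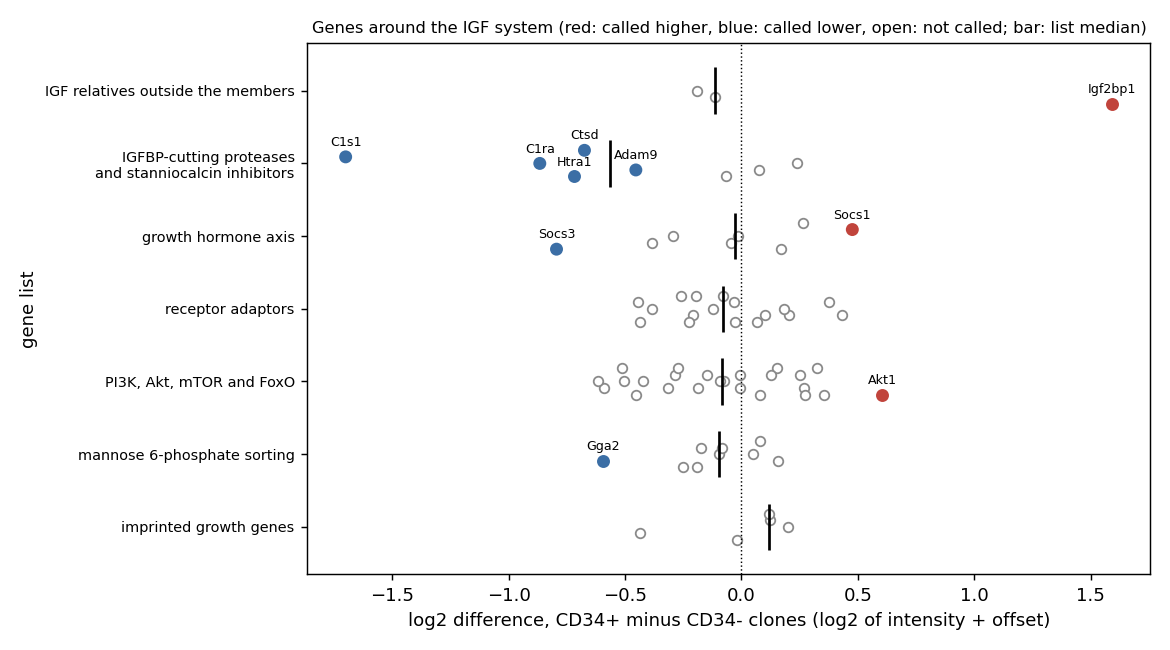
Log2 difference, CD34+ minus CD34- clones, of each tested gene in the 7 lists around the IGF system, 1 row per list (red: called higher, blue: called lower, open: not called, black bar: list median). The protease list has its 5 called genes, from Adam9 (-0.45) to C1s1 (-1.70), to the left, while Igf2bp1 (1.59) and Akt1 (0.61) stand to the right of their lists.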

How the data were processed

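Total RNA of 6 preparations, 3 from CD34+ and 3 from CD34- clones by the sample titles, was read on 18 Affymetrix arrays of 3 chip types. The authors deposited 1 linear intensity per probe set and array, computed with MAS5, as the submitters' processing notes list it. Which version was used is not given in the sources used here. The deposited trimmed means (2% off each end) were 1461 to 1480 on CD34+ arrays and 12.2 to 105 on CD34- arrays, so the authors' intensities were not comparable between groups as deposited.

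After removal of 66 control probe sets per chip type, the 6 arrays of each were quantile normalized. The 20th percentile of the normalized values was added as an offset before log2. Probe sets entered the test if 3 or more of the 6 arrays had a deposited signal over the 40th percentile of that array. Each chip type was fitted with limma 3.58.1 in R 4.3.3 (lmFit, eBayes with an intensity trend, group as the only term), with two-sided p-values and Benjamini-Hochberg adjustment over the probe sets tested on the chip type. The fit was tested on simulated data.

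Names came from GEO's platform annotation: 10833, 10581 and 7717 probe sets had 1 gene symbol, 396, 178 and 150 had several and 1193, 1652 and 4001 had none. They were checked by Entrez identifier against the RefSeq gene table of GRCm38.p6. Members, gene lists and tests were chosen with earlier results of these data known. Named are all members at every probe set, Cd34, in each pathway list the up to 4 called genes with the largest difference (all where 5 or fewer were called), and H19, Insr, Irs1, Irs2, Ghr, Pappa, Grb10 and Akt1; Htra1, Socs3, M6pr and marker genes are further named where a result turns on them.

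Same-numbered RNAs of the groups did not deviate together (correlations of -0.05 to 0.07), so the numbers were not used as pairs. Alternatives changed the scaling, offset, filter, variance trend, fluidics station, replicate block and the RNAs included, and averaged a gene's probe sets. Arrays have no read depth, and their number limits the precision. Detection calls were not used here.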

Additional observations from a re-analysis of the deposited data

How the results depend on the processing

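The count of IGF system probe sets called higher on MG_U74Av2 was 1 as reported (Igf2) and 0 with no filter, without the variance trend and within fluidics station 2. The count called lower there was 1 as reported (Igf1), 2 with no filter, where Igfbp4 101571_g_at was added, and 0 within station 2. On MG_U74Bv2 the count called lower was 1 as reported (Igf1) and 0 on centred deposited values, with no filter, without the variance trend, with the station as a block and within station 1. With 1 RNA left out, the counts were 0 to 1 for higher on MG_U74Av2, 1 to 1 for lower on MG_U74Av2 and 0 to 1 for lower on MG_U74Bv2. No alternative turned the direction of the 3 called probe sets, whereas the Igf1 probe set 95545_at, not called, had -0.15 as reported and 0.33 within station 1. The cause of these changes was not tested. Fewer RNAs leave fewer degrees of freedom and no filter adds tests, but their part in the changes was not tested either.

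The replicate numbers of the groups were tried as a block although they do not pair the RNAs: the replicate block gave limma adjusted p-values of 0.00698 and 0.0324 for the 2 called Igf1 probe sets and 0.0264 for Igf2, so all 3 calls stood. With that block, 504 probe sets were higher and 452 lower on MG_U74Av2, against 627 and 511 as reported, and 31 and 26 on MG_U74Bv2, against 53 and 31. On MG_U74Cv2 it called 0 and 0, against 3 and 4.

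Over all probe sets, the counts of higher and lower calls ranged over the alternatives from 333 to 695 and 301 to 535 on MG_U74Av2, from 1 to 71 and 0 to 43 on MG_U74Bv2, and from 0 to 3 and 0 to 6 on MG_U74Cv2. The scalings moved the median of all probe sets by less than 0.1 on the log2 scale. Of the listed genes, 3 to 5 proteases were called lower, 0 to 1 growth hormone axis genes in each direction, and 0 to 1 sorting genes lower. With no filter 1 adaptor was called higher, and without CD34- replicate 1 1 gene of the PI3K list was called lower. Array signals near background limit what can be said of Igfbp3, Igfbp6 and the dim probe sets of Igf1, Igf2 and Igfbp4.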
